A study of Bos taurus with 6 samples.

Results

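The genes described here are those of complex I of the mitochondrial respiratory chain, NADH:ubiquinone oxidoreductase, and of the factors that assemble it. A gene was taken where its symbol in the platform annotation starts with NDUF and at least 1 of its probe sets, the groups of short probes that measure a transcript, was called present (P) on 3 or more of the 6 arrays. All 42 NDUF genes with a named probe set met this rule, among 6423 genes tested in all, and each is represented by its brightest probe set that met it. By name 10 are core genes (NDUFS and NDUFV), 28 are accessory genes (NDUFA, NDUFB and NDUFC) and 4 are assembly factors (NDUFAF). Of the 57 NDUF probe sets 51 were tested and 6 were not; 5 of these 6 were never called present.

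Complex I takes electrons from NADH, passes them along a chain of iron-sulphur clusters to ubiquinone, and pumps protons across the inner mitochondrial membrane. It has the shape of an L. Its matrix arm consists of the N module, which oxidises NADH, and the Q module, which reduces ubiquinone, and its membrane arm pumps the protons. The catalytic core is made in part by mitochondrial and in part by nuclear genes, and the many supernumerary subunits around it, all nuclear, serve its assembly and stability. Of the nuclear catalytic genes NDUFS1, NDUFS3, NDUFS7, NDUFS8, NDUFV1 and NDUFV2 are described here. NDUFS4, NDUFS5, NDUFS6 and NDUFV3 carry core-type names but are supernumerary subunits.

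The tissue was longissimus dorsi, a back muscle, of male cattle of the Chinese Red Steppe breed, 9 aged 24 months and 9 aged 1 month. All animals were kept under the same standard conditions and diet, per the labels. Each pool mixed the RNA of 3 bulls and went on 1 Affymetrix bovine array, giving 3 pools of each age. The labels give no other difference between the ages, and a pool does not show how its bulls varied. Values are given in the order of pools 2, 3 and 4 at 24 months and pools 1, 2 and 3 at 1 month. They are the deposited normalized intensities on a linear scale; precision is limited by having 3 arrays of each age. Changes are on the log2(intensity + 16) scale as 24 months minus 1 month, with the standard error of the limma fit after ±. A change is called at a Benjamini-Hochberg adjusted p under 0.05 over all 13204 probe sets tested.

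Markers of muscle fibres were present at both ages: their summed intensity was 64435 to 66770.5 at 24 months and 47193 to 48554 at 1 month, and 4 of 7 measured genes were called higher and 0 lower. The summed markers of fibroblasts were 5593 to 7314 against 6717 to 23751 (0 of 6 tested genes called, 1 of them at an unadjusted p under 0.05), those of endothelium 552 to 578 against 756 to 1033 (2 of 3 called lower), those of adipocytes 907 to 1285 against 250.0 to 2641 (1 of 3 called higher) and those of red cells 107 to 112 against 234 to 2525 (the single gene tested called lower), each at 24 months against 1 month. The red cell gene, HBB, was called present on 0 of 3 arrays at 24 months and 3 of 3 at 1 month. It met the filter only through the age where it was higher, so the filter fixed the direction of its call. CFD, the adipocyte gene called, was present on 3 of 3 arrays at 24 months and 1 of 3 at 1 month. Lists for leukocytes, satellite cells, smooth muscle and Schwann cells, with 4, 1, 3 and 1 genes tested, held 0 genes called by limma and 0 at an unadjusted p under 0.05. On their brightest probe sets LEP, VWF, KDR, ALAS2, SLC4A1 and CD79A were never called present. Actin, whose probes at the 3' and 5' ends report on RNA quality, had a log2 ratio of 3' over 5' intensity of 0.24 ± 0.02 at 24 months and 0.67 ± 0.20 at 1 month (SD; two-sided exact permutation p = 0.1, the smallest that 3 against 3 arrays allow). The GAPDH ratio was 0.11 ± 0.03 at 24 months and 0.33 ± 0.07 at 1 month (SD, exact permutation p = 0.1). The share of probe sets called present was 55.4 ± 0.8% and 50.3 ± 1.9% (SD, exact permutation p = 0.1). In all 3 measures the arrays of the ages did not overlap. In a second table that the authors deposited for the same arrays the actin ratio was -0.22 ± 0.05 at 24 months and -0.24 ± 0.07 at 1 month (SD; exact permutation p = 0.8). The part of the other cell types in the results below was not tested. In bulk tissue fewer fibres or mitochondria and less RNA per cell cannot be told apart.

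On their brightest probe sets 3 of the 42 rose, NDUFV1, NDUFS7 and NDUFA9, and 2 fell, NDUFA6 and NDUFB4. The 5 calls are 11.9% of the members, against 17.0% of all genes tested on their brightest probe sets; the rises are to be read against 11.3% and the falls against 5.78%. The median change was 0.03, against 0.03 over all genes tested, and the members ranged from -0.63 to 0.72, so no member differed by 2-fold. The arrays of the ages did not overlap for 15 members (35.7%), 8 of them higher and 7 lower at 24 months, against 41.9% of all genes tested (23.8% higher and 18.1% lower). At an unadjusted p under 0.05 stood 11 members, 5 higher and 6 lower, against 33.8% of all genes tested (20.0% higher and 13.9% lower). The members' shares of rises and of both directions together lie below the background. Those of falls lie near it, and all rest on few genes. With quantile normalization 0 members rose and 5 fell (11.9%), against backgrounds of 8.64% and 7.58%, 16.2% in all. The falls thus lay above their background there. With this normalization 17 of 42 changes were positive, against 22 without it. The count of positive changes moved with the setting: it was 34 of 42 with the actin 3' to 5' ratio as a covariate (3688 of 6423 over all genes) and 12 of 42 in the second deposited table as it stands (2628 of 6423). The actin ratio did not overlap between the ages (0.217 to 0.258 at 24 months, 0.458 to 0.852 at 1 month). Fits with this covariate therefore cannot separate it well from age. In them the standard error of NDUFV1 went from 0.17 to 0.36, though that of NDUFAF6 went from 0.33 to 0.27.

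**Figure D1:**
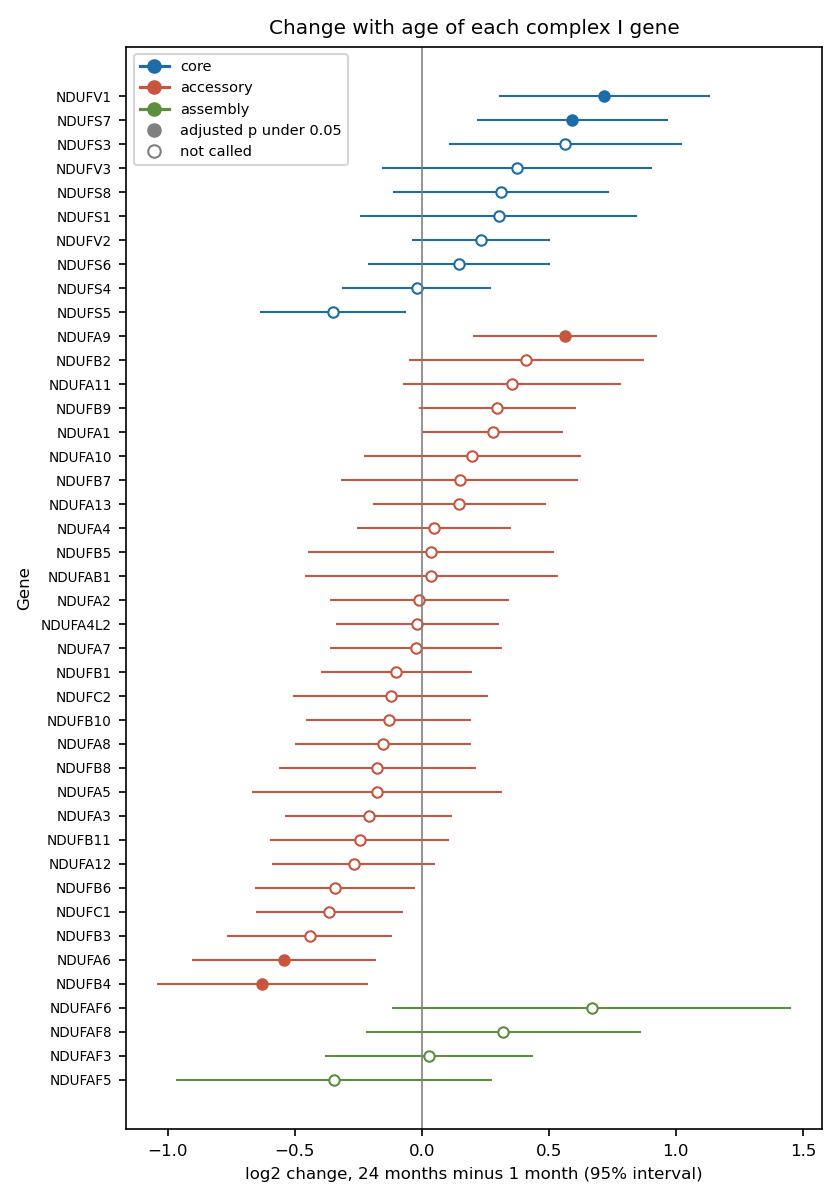
The log2 change of each of the 42 complex I genes, 24 months minus 1 month, is plotted on the horizontal axis with its 95% interval from the limma fit, coloured by class, with filled points for an adjusted p under 0.05. The 3 filled points on the right are NDUFV1, NDUFS7 and NDUFA9 and the 2 on the left are NDUFA6 and NDUFB4; the other 37 are open.

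Core genes had the more positive changes and accessory genes the more negative. The 10 genes with core names had a median change of 0.31, with 8 positive and 2 negative, though the median was -0.02 in the second deposited table as it stands. The 28 accessory genes had a median of -0.06, with 11 positive and 17 negative, though the median was 0.22 with the actin ratio as a covariate. All 6 measured catalytic genes had positive changes, with a median of 0.44 (0.28 to 0.73 over quantile normalization, the second table and the actin covariate; NDUFV2 alone turned negative, in the second table), while the 4 supernumerary genes with core names had a median of 0.06. Over all genes tested 52.3% of changes were positive. These medians describe the lists and were not tested as such, since the genes of a list share the same 6 arrays.

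Among the catalytic genes NDUFV1, which binds NADH and the flavin that takes its electrons, had an intensity of 1157, 1575 and 1294 at 24 months, against 702, 946 and 779.7 at 1 month. All 24-month pools lay above all 1-month pools, and NDUFV1 rose by 0.72 ± 0.17 (adjusted p = 0.0326), the largest change among the 42 genes, with a 95% interval of 0.31 to 1.13. NDUFS7, which carries the last iron-sulphur cluster before ubiquinone, had 3117, 3522 and 3213 at 24 months, against 2217, 2538 and 1812 at 1 month. The ages again did not overlap, and it rose by 0.59 ± 0.16 (adjusted p = 0.0422). NDUFS3, a Q module subunit that enters assembly early, had 2272, 2945 and 2841 at 24 months, against 1804, 2211 and 1458 at 1 month, and its 1-month pool 2 came close to the lowest 24-month pool. Its change of 0.57 ± 0.19 was of the same size as that of NDUFS7 but did not pass (adjusted p = 0.0822).

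The other catalytic genes had smaller changes that did not pass. NDUFV2, an iron-sulphur subunit beside NDUFV1, had 3701, 3722 and 3968 at 24 months, against 3168, 3271 and 3240.1 at 1 month. Its pools did not overlap between the ages, with a change of 0.23 ± 0.11, adjusted p = 0.185. NDUFS8, an iron-sulphur subunit of the Q module, had 1537, 1583 and 1678 at 24 months, against 1178, 1649 and 1089.5 at 1 month, and its 1-month pool 2 reached the level of the 24-month pools (0.31 ± 0.18, adjusted p = 0.251). NDUFS1, the large iron-sulphur subunit of the N module, had 1422, 1646 and 1759 at 24 months, against 1396, 1679 and 929 at 1 month. Here too the ages overlapped through pool 2 of 1 month, and the low value of pool 3 made the 1-month spread wide (0.30 ± 0.23, adjusted p = 0.379).

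The supernumerary subunits with core names went both ways. NDUFS5, a small subunit on the intermembrane side of the membrane arm, had 1919, 2018 and 1949.6 at 24 months, against 2468, 2711 and 2343 at 1 month, with every 24-month pool below every 1-month pool. Its change was -0.35 ± 0.12, adjusted p = 0.0859, and it did not pass. NDUFV3, a small N module subunit, gave 0.37 ± 0.22, adjusted p = 0.272, NDUFS6, a zinc-binding subunit needed late in assembly, 0.15 ± 0.15, adjusted p = 0.523, and NDUFS4, a stabiliser of the N module, -0.02 ± 0.12, adjusted p = 0.924. The pools of the ages overlapped for all 3.

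**Figure D2:**
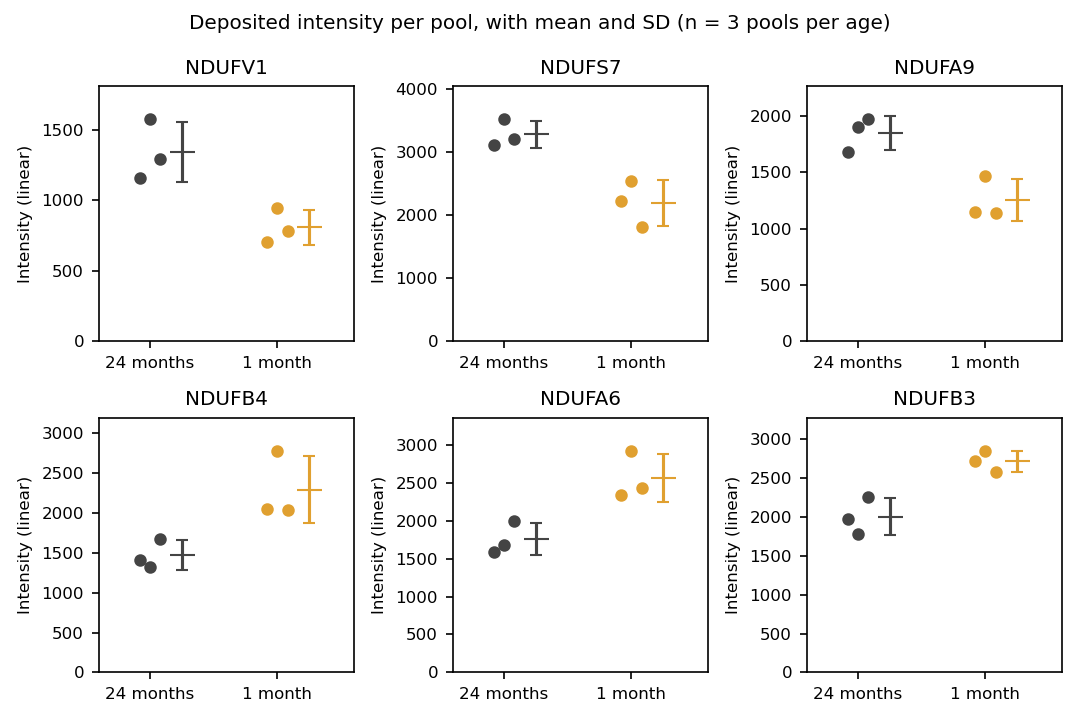
Deposited linear intensities (vertical axis, from 0) are shown as points for each of the 3 pools per age, with the mean and SD beside them, for the 5 called genes and NDUFB3. The 24-month pools lie above the 1-month pools for NDUFV1, NDUFS7 and NDUFA9 and below them for NDUFB4, NDUFA6 and NDUFB3.

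The remaining subunits of the matrix arm contained a rise and a fall. NDUFA9, a subunit at the foot of the matrix arm near the ubiquinone site that binds NADPH, had 1681, 1904 and 1974 at 24 months, against 1149.9, 1472 and 1141 at 1 month. The ages did not overlap, and NDUFA9 rose by 0.56 ± 0.15 (adjusted p = 0.0433). NDUFA6, a subunit of the LYR family that holds an acyl carrier protein on the complex, had 1592, 1685 and 1991 at 24 months, against 2343, 2922 and 2426 at 1 month. Every 24-month pool was below every 1-month pool, and NDUFA6 fell by 0.54 ± 0.15 (adjusted p = 0.0486). NDUFA12, whose place is held during assembly by the factor NDUFAF2, also had all 24-month pools below the 1-month pools, at 2779, 2731 and 2918 at 24 months, against 3521, 3723 and 2961 at 1 month, but did not pass (-0.27 ± 0.13, adjusted p = 0.199). NDUFA2, NDUFA7 and NDUFA5 gave -0.01, -0.02 and -0.18 with overlapping pools. A further NDUFA5 probe set, little fainter than the brightest, had 821, 931 and 731 at 24 months, against 1086, 1190.2 and 1622 at 1 month. Its ages did not overlap, and it gave -0.63 ± 0.19, adjusted p = 0.0578, with a call in the falling direction under quantile normalization (-0.77, adjusted p = 0.0325) and with the actin covariate (-1.28, adjusted p = 0.0419).

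By structural module the 5 Q module genes measured, NDUFS3, NDUFS7, NDUFS8, NDUFA5 and NDUFA9, had a median change of 0.56 and 2 rises, and the 10 N module genes had a median of 0.07 (-0.07 with quantile normalization), with 1 rise and 1 fall. The 9 genes of the proximal membrane arm had a median of -0.12 with 0 calls by limma (3 at an unadjusted p under 0.05), and the 11 NDUFB genes of the distal membrane arm a median of -0.13 with 0 rises and 1 fall. With the actin covariate both membrane arm medians were positive, at 0.25 and 0.09. Within the matrix arm, with a median of 0.23 over 15 genes, the 6 catalytic genes had 0.44 and the 9 supernumerary genes -0.02. The median of the matrix arm turned to -0.21 in the second table as deposited, and that of its supernumerary genes to 0.17 with the actin covariate.

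**Figure D3:**
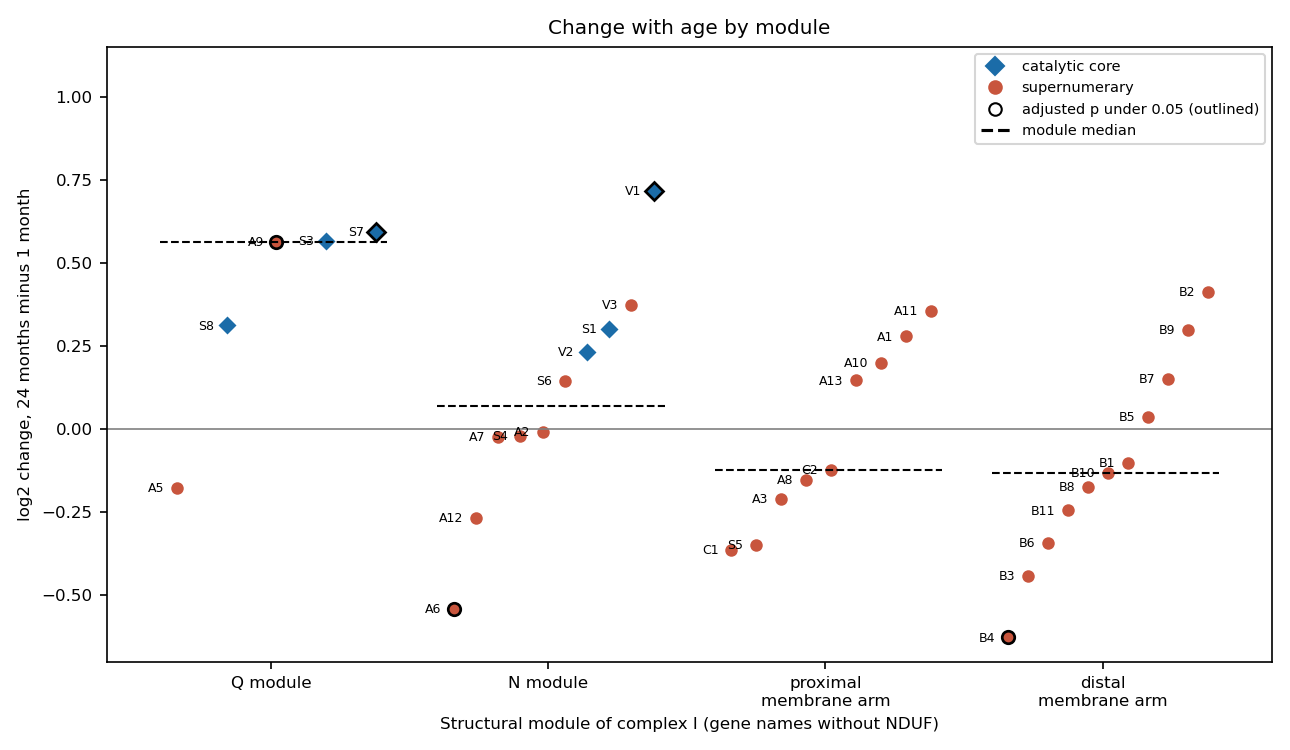
The log2 change of each subunit gene, 24 months minus 1 month, is plotted by structural module, with diamonds for the catalytic core, circles for supernumerary subunits, black outlines for an adjusted p under 0.05 and a dashed line at each module's median. All 6 diamonds lie above 0 (NDUFV2 lies below it in the second table), and the module medians run from 0.56 in the Q module to -0.13 in the distal membrane arm.

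In the membrane arm 12 of 20 changes were negative and 8 positive, though 14 were positive with the actin covariate. NDUFB4, a small subunit of the distal part, had 1413, 1318 and 1675 at 24 months, against 2049, 2777 and 2041 at 1 month. Every 24-month pool lay below every 1-month pool, and NDUFB4 fell by 0.63 ± 0.17 (adjusted p = 0.0476), the most negative change among the members. NDUFB3, another small distal subunit, had 1977, 1777 and 2251 at 24 months, against 2711, 2849 and 2579 at 1 month, also without overlap, but did not pass (-0.44 ± 0.14, adjusted p = 0.0641). NDUFC1, a short membrane-spanning subunit of the proximal part, had 1764, 1713 and 1909 at 24 months, against 2214, 2472 and 2257 at 1 month. Its ages were apart in the same direction, and its change of -0.36 ± 0.12, adjusted p = 0.0788 missed the threshold. NDUFB6 was a further distal gene with all 24-month pools below the 1-month pools (-0.34 ± 0.13, adjusted p = 0.111).

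Other membrane arm genes ran the opposite way. NDUFB2, a small distal subunit, had 2021, 2329 and 2209 at 24 months, against 1759, 2004 and 1243 at 1 month, all 24-month pools being higher, the nearest by a narrow margin (0.41 ± 0.19, adjusted p = 0.177). NDUFB9, another LYR protein of the complex, and NDUFA1, a short membrane-spanning subunit, were likewise higher in every 24-month pool, with changes of 0.30 ± 0.13, adjusted p = 0.148, and 0.28 ± 0.11, adjusted p = 0.132. The rest of the distal genes, NDUFB1, NDUFB5, NDUFB7, NDUFB8, NDUFB10 and NDUFB11, lay between -0.24 for NDUFB11 and 0.15 for NDUFB7 with overlapping pools. In the proximal part NDUFA3, NDUFA8, NDUFA10, NDUFA11, NDUFA13 and NDUFC2 lay between -0.21 for NDUFA3 and 0.36 for NDUFA11, also with overlap.

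NDUFAB1, the mitochondrial acyl carrier protein that the LYR subunits bind, gave 0.04 ± 0.21, adjusted p = 0.917, with overlapping ages. NDUFA4, which carries a complex I name but is now counted as a complex IV subunit, had 5399, 5104 and 5814 at 24 months, against 5444, 5531 and 4824 at 1 month, and its change was 0.05 ± 0.13, adjusted p = 0.82. NDUFA4L2, a relative of NDUFA4 known from the response to low oxygen, was the faintest member and the only one not called present on all 6 arrays. It was called on 2 arrays of each age, with intensities of 43.3, 36.4 and 35 at 24 months, against 43.3, 39.8 and 33.5 at 1 month, and gave -0.02 ± 0.13, adjusted p = 0.939. Without NDUFA4 and NDUFA4L2 the median of the accessory genes was -0.11.

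None of the 4 assembly factors passed by limma, and none had an unadjusted p under 0.05. NDUFAF6, needed for the making of the mitochondrial subunit at the base of the membrane arm, had 223, 308 and 273 at 24 months, against 95.4, 159 and 269 at 1 month. The low values of 1-month pools 1 and 2 gave the second largest change among the members, but with a wide error (0.67 ± 0.33, adjusted p = 0.194). NDUFAF6 turned to -0.81 ± 0.27 (adjusted p = 0.116) with the actin covariate; it was 0.33 without 1-month pool 1, and 1.01, with an adjusted p of 0.0251, without 1-month pool 3. NDUFAF8, a partner that stabilises NDUFAF5, had 545, 619.6 and 535 at 24 months, against 431, 627 and 334 at 1 month, and gave 0.32 ± 0.23, adjusted p = 0.35. NDUFAF5, which hydroxylates NDUFS7, had 279, 335 and 335 at 24 months, against 375, 609 and 290.1 at 1 month, where 1-month pool 2 stood far above the rest (-0.35 ± 0.26, adjusted p = 0.378). NDUFAF3, which acts early on the Q module, gave 0.03 ± 0.17, adjusted p = 0.92. Among assembly factors with other names, 7 of the 12 listed were measured and 0 were called by limma, with 1 at an unadjusted p under 0.05; their median change was 0.13 and they ranged from -0.37 for CHCHD4, which imports cysteine-rich subunits, to 0.44 for COA1.

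The genes also moved together from pool to pool within an age. Of the 42 genes 37 were highest in pool 2 among the 1-month arrays, and 36 were lowest in pool 3. Among the 24-month arrays 26 genes were lowest in pool 2, while the highest value fell in pool 4 for 20 genes and in pool 3 for 19. These counts were not taken over all genes tested, so they do not show a trait particular to complex I genes. The SD of the log2 values over the members had a median of 0.12 at 24 months and 0.21 at 1 month, and was larger at 1 month for 36 of the 42. Over all genes tested the medians were 0.11 and 0.27, so that the wider spread at 1 month was not limited to complex I genes.

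Core and accessory genes were also set against each other within each array. Each gene was expressed as its deviation from its own mean over the 6 arrays, and the median over accessory genes was taken from that over core genes. The difference was 0.15, 0.21 and 0.24 at 24 months, against -0.28, -0.12 and -0.23 at 1 month. Core genes thus stood higher relative to accessory genes in every 24-month pool than in any 1-month pool, 1-month pool 2 included, where most members were at their highest of that age. For the 6 catalytic genes against the 11 distal NDUFB genes the difference was 0.26, 0.37 and 0.28 at 24 months, against -0.37, -0.26 and -0.37 at 1 month. These values come from a grouping made with earlier results known and carry no p.

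**Figure D4:**
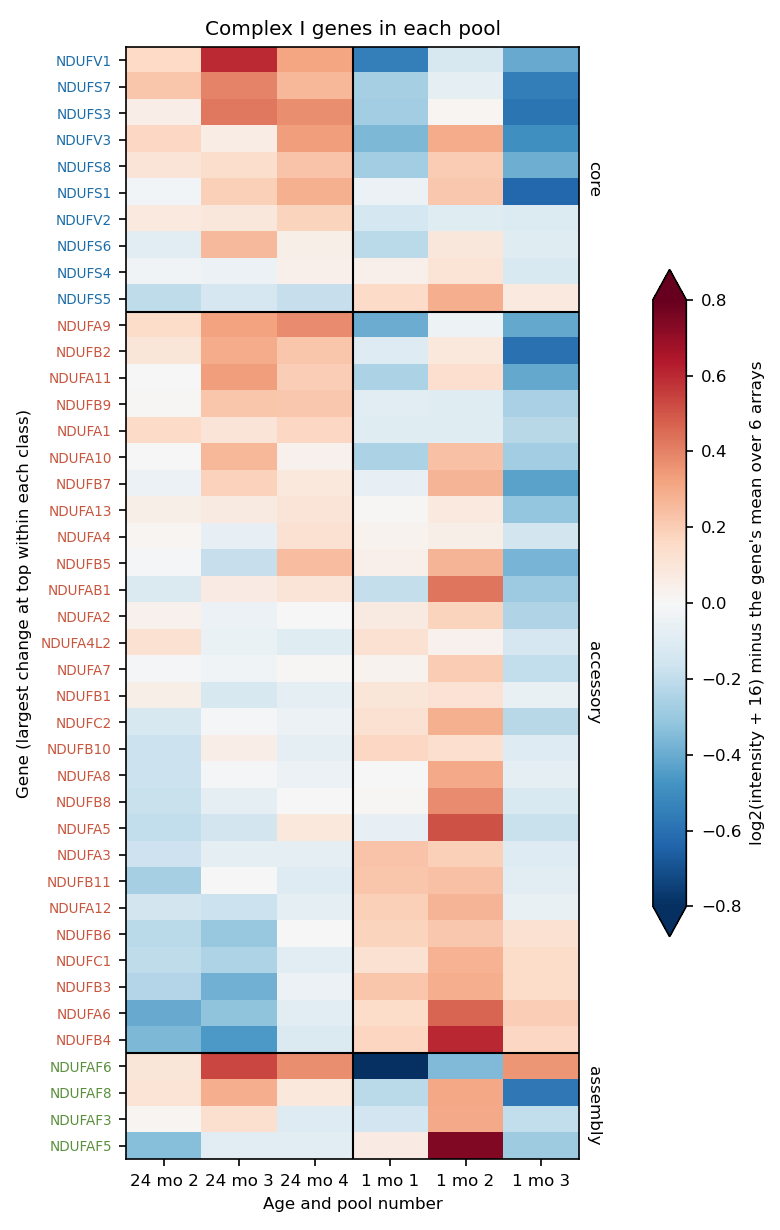
Each cell shows the log2(intensity + 16) of a gene in a pool minus that gene's mean over the 6 arrays, with genes in rows by class and pools in columns, 24 months on the left. The columns of 1-month pools 2 and 3 are high and low for most genes (37 highest in pool 2, 36 lowest in pool 3), and the catalytic rows NDUFV1, NDUFS7, NDUFS3, NDUFS8 and NDUFV2 are above 0 in every 24-month pool, while the core row NDUFS5 and the rows from NDUFC1 to NDUFB4 at the foot of the accessory class are below 0 there. Also above 0 in every 24-month pool are NDUFV3, NDUFA1, NDUFA9, NDUFA11, NDUFA13, NDUFB2, NDUFB9, NDUFAF6 and NDUFAF8.

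Genes with more than 1 tested probe set numbered 7, and in 4 of them a fainter probe set gave a change over 0.5 away from the brightest. The faintest of 3 NDUFS1 probe sets had 70.3, 209 and 178 at 24 months, against 40.3, 60.6 and 40.9 at 1 month. It was called present on 3 of 3 arrays at 24 months and 1 of 3 at 1 month, and gave 1.31 ± 0.36, adjusted p = 0.0461, a called rise that its brighter probe sets (0.30 on the brightest and 0.16 on the next) did not show at that size. A fainter NDUFS3 probe set gave -0.08 ± 0.13, adjusted p = 0.684, unlike the 0.57 of the brightest. The fainter probe sets of NDUFAF3 and NDUFB2 gave -0.49 ± 0.17, adjusted p = 0.0893, and -0.10 ± 0.23, adjusted p = 0.782, against 0.03 and 0.41 on the brightest. The 5 called genes each had a single tested probe set.

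The second table deposited by the authors, of the same 6 arrays on an unknown scale, was quantile normalized and fitted in the same way. In it the catalytic genes had a median change of 0.45 and the accessory genes -0.23, and 0 of the 5 genes called in the main table passed, in a table where 11.8% of all genes did. NDUFV1 gave 0.75, NDUFS7 0.47, NDUFA9 0.25, NDUFA6 -0.66 and NDUFB4 -0.64, each in the direction of the main table. The single call in that table was NDUFB1, a small distal subunit, with 497, 345 and 441 at 24 months, against 1868, 2416 and 849.5 at 1 month. Those are the deposited values; after quantile normalization its change was -1.73 ± 0.35, a fall with an adjusted p of 0.0214. In the main table it had 2192, 1943 and 2013 at 24 months, against 2267, 2299 and 2031 at 1 month, and gave -0.10 ± 0.12, adjusted p = 0.596. The tables therefore disagree on NDUFB1, and the cause was not tested.

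The 5 calls lay close to the threshold, with adjusted p from 0.0326 to 0.0486, and each was lost when any 24-month array was left out. Without 24-month pool 2, 3 or 4 the number called by limma was 0 each time (7, 5 and 8 at an unadjusted p under 0.05), and the share of all genes called was 4.09%, 3.47% and 3.32%. Without 1-month pool 1, 2 or 3 the number was 2, 6 and 5, and the share 19.0%, 16.3% and 24.1%. NDUFV1 and NDUFS7 also lost their calls without 1-month pool 1, NDUFA9 without 1-month pools 1 and 3, and NDUFA6 and NDUFB4 without 1-month pool 2. With the actin ratio as a covariate 0 members were called by limma (4 at an unadjusted p under 0.05), against 8.36% of all genes; all 5 kept their direction, from -0.56 for NDUFA6 to 0.92 for NDUFS7. The shares of all genes in these fits are of adjusted calls. None was taken at an unadjusted p under 0.05, so the unadjusted counts of members do not show an excess. The shares of all genes called under the other settings were 0.732% with the pool number as a block, 8.30% in the second table as deposited, and 16.2% and 17.3% with offsets of 1 and 50. They were 15.8% when presence on all 6 arrays was required, 18.8% without a filter, 16.6% with median centring, 17.1% with trend and robust eBayes, and 17.4% with the mean of a gene's probe sets.

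**Figure D5:**
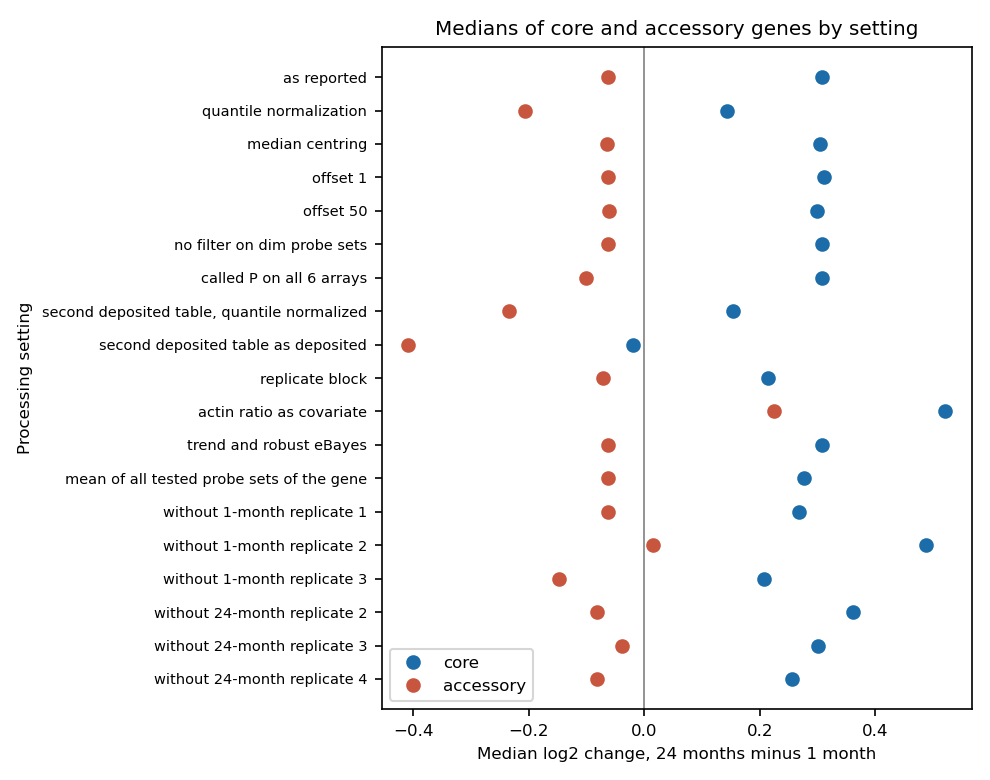
The median log2 change, 24 months minus 1 month, of the 10 core genes and of the 28 accessory genes is plotted on the horizontal axis for each processing setting on the vertical axis. The core median lies to the right of the accessory median in every setting shown, from 0.28 to 0.47 apart. Both medians shift with the setting, down to -0.02 and -0.41 in the second table as deposited. With the actin ratio as a covariate they are 0.52 and 0.22.

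The nuclear genes of the other respiratory complexes were counted from lists written from textbook knowledge, and their calls stand against the same 11.3% of rises and 5.78% of falls. Of 4 genes of complex II, succinate dehydrogenase, 1 rose and 0 fell, with a median of 0.40. SDHA, its flavin-bearing subunit, had 2191, 2493 and 2348 at 24 months, against 1506, 1509 and 1567 at 1 month, and rose by 0.61 ± 0.12 (adjusted p = 0.0168). Of 9 genes of complex III 1 rose and 0 fell, with a median of 0.02: UQCRC1, a large matrix-side subunit, had 2223, 2893 and 2479 at 24 months, against 1513, 1725 and 1384 at 1 month, and rose by 0.71 ± 0.15 (adjusted p = 0.0236). In neither gene did the ages overlap. Both calls were lost with quantile normalization (adjusted p = 0.0501 for SDHA and 0.0775 for UQCRC1) and in the second table after it (0.0873 and 0.0661). The mean over the tested probe sets of UQCRC1 gave 0.29 (adjusted p = 0.185).

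Of 12 measured genes in the complex IV list, NDUFA4 among them, 0 rose and 3 fell, with a median of -0.04. COX6A1 and COX7A2 are the forms of their subunits found in most tissues, and COX6A2 and COX7A1 are the forms of heart and skeletal muscle. COX6A1 had 261, 278 and 251 at 24 months, against 754, 551 and 494 at 1 month, and fell by 1.12 ± 0.18 (adjusted p = 0.00936). COX7A2 had 526, 443 and 519 at 24 months, against 1423, 1014 and 866 at 1 month, and fell by 1.10 ± 0.20 (adjusted p = 0.0144), while the muscle forms COX6A2 and COX7A1 gave 0.18 ± 0.12, adjusted p = 0.32, and -0.06 ± 0.14, adjusted p = 0.781. The third fall was that of COX8B, the heart and muscle form of its subunit, by 0.49 ± 0.12 (adjusted p = 0.0377). COX8B did not pass in the second table after quantile normalization (adjusted p = 0.0687) or with an offset of 1 (0.0532). COX8A, another form of that subunit, gave -0.79 ± 0.22 without overlap of the ages and did not pass (adjusted p = 0.0502). It passed as a fall with quantile normalization (-0.92, adjusted p = 0.0333) and gave 0.08 (adjusted p = 0.889) with the actin covariate. With the actin covariate COX6A1 gave -0.52 (adjusted p = 0.248) and COX7A2 -0.34 (adjusted p = 0.446), while in the second table after quantile normalization they gave -1.56 and -1.69 and stayed called. As the mean of its probe sets COX6A1 gave -0.58 and stayed called, and COX8B gave -0.16 (adjusted p = 0.32) and did not.

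Of 15 measured ATP synthase genes 0 rose and 1 fell, with a median of -0.12; ATP5MC2, a gene for the ring subunit c, had 2973, 2854 and 3023 at 24 months, against 3788, 3889.7 and 4048 at 1 month, and fell by 0.40 ± 0.11 (adjusted p = 0.0491). Among regulators of mitochondrial gene expression 1 of 5 tested genes rose and 0 fell: TFB1M, which methylates mitochondrial ribosomal RNA, had 214, 244 and 216 at 24 months, against 128, 155 and 134 at 1 month, and rose by 0.64 ± 0.13 (adjusted p = 0.0199). PPARGC1A, the coactivator of mitochondrial biogenesis, had 121, 85.1 and 95.3 at 24 months, against 108, 164 and 191 at 1 month, overlapping between the ages (-0.53 ± 0.22, adjusted p = 0.136). As with complex I, none of the calls named in these other lists passed with the actin covariate (adjusted p = 0.153 to 0.446). None passed with the pool number as a block either (adjusted p = 0.0829 to 0.279). Without 24-month pool 2 or 3 only COX6A1 passed (adjusted p = 0.0493 and 0.0474). Without 24-month pool 4 none passed (adjusted p = 0.0556 for COX6A1). The mitochondrial genes of complex I subunits had no named probe set among those used here.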

How the data were processed

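The authors deposited a table named for dChip, of linear intensity values normalized across arrays, with a present, marginal or absent call per array; software version and normalization method: not given in the sources used here. Its deposited detection p-value columns were not used. A second table deposited by the authors holds linear intensity values on an unknown scale; by deviations from each probe set's mean, each of its columns correlated best with the same array in the main table (r from 0.81 to 0.90). Columns were matched to samples by title and samples to ages by label.

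Probe sets were named from GEO's platform annotation where it gives 1 symbol (13292 of 24128 probe sets, 112 being controls); all 42 gene identifiers matched the RefSeq table of ARS-UCD2.0 with the same symbol. Array medians lay within 0.0378 on the log2 scale (limit 0.2), and no further normalization was made. limma 3.58.1 (lmFit, eBayes) in R 4.3.3, tested on simulated data, was fitted to log2(intensity + 16) over the 13204 non-control probe sets called present on at least 3 of 6 arrays. Its p-values are two-sided and measure the spread between pools.

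Genes given with their values were the called members, the 2 with the smallest p per class, the 5 largest and 5 smallest changes, those whose probe sets differ by over 0.5, the assembly factors, the catalytic genes, and up to 3 called genes per other list. Others were named after their values were seen, to complete a structural group or set isoforms side by side. Members, modules and lists were chosen with earlier results of these data known. Alternatives covered normalization, offset, filter, gene summary, the second table, the eBayes setting, the actin ratio, the replicate block and each array left out. Protein and promoter sequences were not used here.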

Additional observations from a re-analysis of the deposited data

How the results depend on the processing

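The number of complex I genes called, 5 as reported, was 5 to 6 with quantile normalization, median centring, no filter, trend and robust eBayes, or the mean of a gene's probe sets. It was 1 with an offset of 1 (NDUFV1), 8 with an offset of 50, 3 when presence on all 6 arrays was required, and 1 in the second table with or without quantile normalization (NDUFB1, shared with 0 of the 5 calls). It was 0 with the actin covariate (4 at an unadjusted p under 0.05) and 0 with the replicate block (2 at an unadjusted p under 0.05). No share of all genes was taken for these unadjusted counts. With 1 array left out it ranged from 0 to 6. With quantile normalization NDUFA6 and NDUFB4 kept their calls, the 3 rises did not pass (adjusted p up to 0.141), and NDUFB3, NDUFC1 and NDUFS5 passed as falls. Over the 18 alternatives the adjusted p ran from 0.0296 to 0.372 for NDUFV1, 0.0293 to 0.474 for NDUFS7, 0.0277 to 0.77 for NDUFA9, 0.0327 to 0.304 for NDUFA6 and 0.032 to 0.382 for NDUFB4, and none of these 5 turned in sign. The second table as deposited moved the median of all genes by -0.15. Medians of all members, core and accessory genes moved to -0.36, -0.019 and -0.41 there and to 0.23, 0.52 and 0.22 with the actin covariate; the accessory median was also -0.21 with quantile normalization and -0.23 in the second table with it. The core median minus the accessory median, 0.37 as reported, was 0.28 with the replicate block, 0.30 with the actin covariate, and 0.33 to 0.47 with 1 array left out. Members called in neither fit changed sign in 0 to 10 cases per alternative, and in 14 with the actin covariate. The replicate block used pool numbers 2 and 3, which occur at both ages; the pools hold different bulls, deviations of same-numbered pools correlated at -0.18 and 0.04, and the numbers do not pair them. The cause of these differences was not tested. The actin ratio did not overlap between the ages, so the fits with that covariate cannot separate it well from age. Every fit with 1 array left out has fewer degrees of freedom, whichever age the array is from. All the fits, the one reported included, assume that pools of both ages vary alike. Over all genes tested the median SD was 0.27 at 1 month and 0.11 at 24 months.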
